A study of Oryctolagus cuniculus with 54 samples.

Results

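The 60 most abundant transcripts of the developing rabbit lung were examined, out of the 29587 genes in the deposited count table. They were chosen by their own level: counts were expressed as CPM (the count of a gene divided by the total of its library and scaled to 1000000), averaged over the libraries of a time point within a sequencing run, and then averaged over all 20 combinations of time point and run. The members are numbered here by that average, from gene 1 (the highest) to gene 60. Genes are given in the table as Ensembl identifiers without symbols, 0 of which matched the RefSeq gene table at hand, so symbols, protein or transcript sequences and a check of the tissue against lung cell markers were not used here. Among the members that changed, gene 1 is ENSOCUG00000000568, which rose towards birth. Gene 14 is ENSOCUG00000016669 and gene 35 is ENSOCUG00000020733, which both rose towards birth and fell after term birth. Gene 37 is ENSOCUG00000012881, which was low in the newborns of 1 run.

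A tissue's messenger RNA is unevenly divided. Transcripts that every cell needs in bulk, such as those for ribosomal proteins, the cytoskeleton and the subunits encoded in mitochondrial DNA, usually stand near the top, together with the specialised products of the tissue. In lung the best known of these are the surfactant proteins of alveolar type II cells, which the fetus begins to make in quantity late in gestation so that the air spaces do not collapse at the first breaths. Because shares add up to the whole library, a transcript that takes more of it lowers the share of all others. Which of the 60 members belong to which of these classes was not determined here.

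Lungs came from New Zealand White rabbits, and RNA was read near the 3′ end of each transcript (QuantSeq), in 54 libraries of 45 animals and 3 sequencing runs. Fetal pups were taken by C-section at days 20, 23, 25, 27, 28 and 29 of gestation (F20 to F29), and term pups were born naturally at day 31 and sampled on that day (T31) or after 4, 6 and 11 days with their mothers (T35, T37 and T42). Preterm pups were delivered by C-section at day 28 and sampled at 1 hour (P0) or after 3 or 7 days (P3, P7) in incubators at 21% oxygen on milk replacer. Run 1 held 3 libraries each of F25, F27, F28, F29, T31 and T35. Run 2 held 3 of P0, 3 of P3 and 2 each of P7, F28 and T35. Run 3 held 4 each of F20, F23 and T37, 3 each of T31 and T42, 2 each of F28 and T35, and 1 each of F25 and P7. Whole lungs were used at F20 and F23 and right lungs from then on, so this difference and age cannot be told apart in comparisons across F23. Pups of a time point came from different dams, and 6 animals were sequenced in more than 1 run. In whole-tissue RNA, fewer cells of a type and less RNA per cell cannot be told apart.

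Libraries held 5771693 to 8073755 counts, with a median of 7090332. At this depth every member was far above the counting limit on average, and all 60 were detected in all 54 libraries. Reads were not tagged by molecule and several can stem from 1 transcript, so the spread between animals, rather than the count, was used as the error throughout.

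By the average that chose them, the 60 members held 22.9% of all counts. Gene 1 held 4.12% (41174 CPM) and gene 2 held 3.83% (38258 CPM), and these were the only members above 1%. Gene 3, next in order, averaged 5487 CPM, and the other 58 members together held 14.99%. The list thus had a steep top and a long shallow tail. Genes 4 to 10 averaged 4948, 4613, 4547, 4126, 4056, 3888 and 3801 CPM, genes 11 to 20 lay between 3585 and 2902 CPM, and the last 40 members together held 8.20% of counts. The limit of the list separated genes of nearly the same level, as genes 58, 59 and 60 averaged 1587, 1522 and 1510 CPM, and the 3 genes just outside it 1499, 1494 and 1487 CPM. Gene 1 was the most abundant gene in 32 libraries and gene 2 in the remaining 22.

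The average hides different kinds of members. Only 20 of the 60 were among the 60 highest genes in all 20 combinations of time point and run, whereas 54 were so in at least 10, and the lowest number was 6, for genes 7 and 54. The ratio of a member's highest to its lowest library had a median of 3.94 over the 60 members. It was under 2 for 5 members (genes 8, 19, 21, 36 and 40, named after their values were seen), over 10 for 13 members and over 100 for 5 (genes 11, 14, 30, 31 and 35). Gene 8 ran from 3029 to 5472 CPM and gene 19 from 2218 to 3865 CPM over all libraries, ages and runs. Gene 14, in contrast, ran within run 3 from 5.60 CPM in an F20 library to 7564 CPM in a T31 library, and gene 35 from 1.37 CPM to 6175 CPM between the same ages. Gene 14 and gene 35 were thus among the most abundant transcripts on average while all but absent from the early fetal lung.

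The standard deviation of log2(CPM + 1) within combinations of time point and run had a median of 0.191 over members and 0.283 over the 15945 genes for which it was computed, and it was under 0.3 for 40 of the 60 members against 55.7% of those genes. The members were chosen for high counts, so this difference is a description and nothing is read from it. 5 members spread by more than 1 log2 unit between animals of the same age, and these were genes 2, 11, 23, 30 and 31, described further on.

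**Figure D1:**
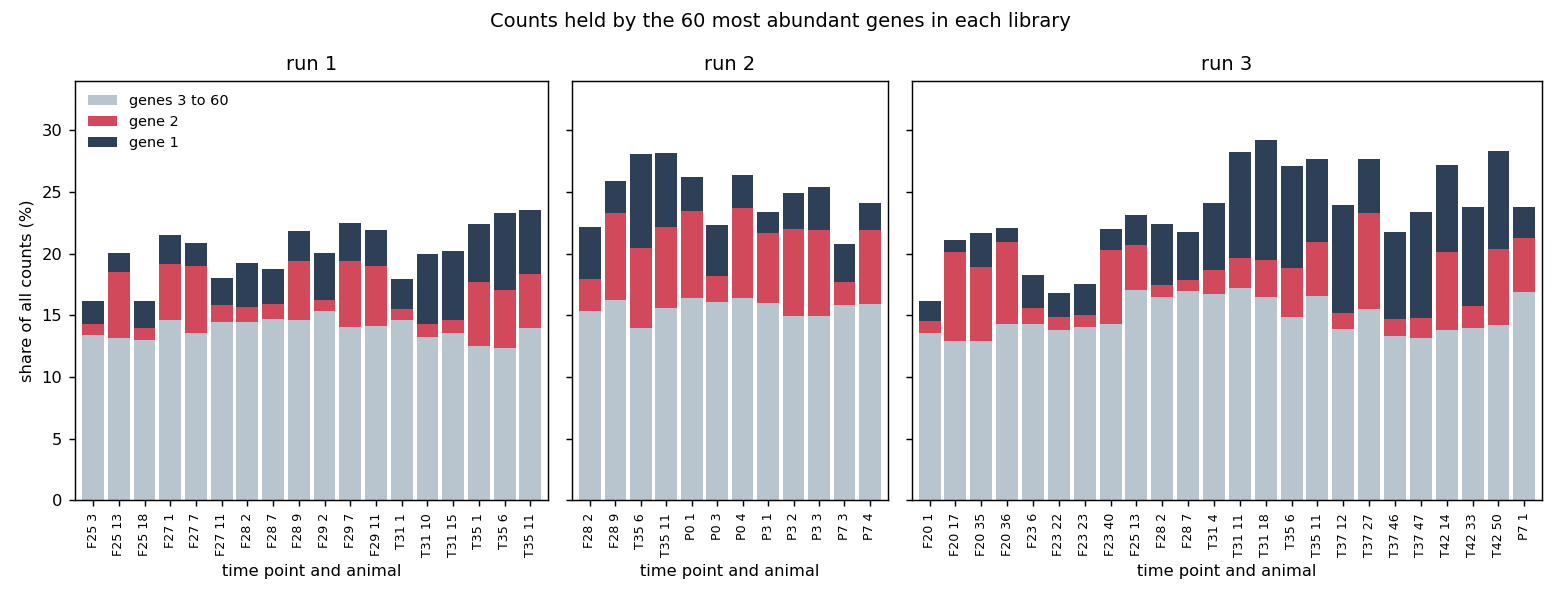
Share of all counts (%, vertical axis) held by gene 1, gene 2 and the other 58 members in each of the 54 libraries, ordered by run, time point and animal. Genes 3 to 60 fill a nearly even base of 12.3% to 17.2%, and the height of the bars follows genes 1 and 2.

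The share held by all 60 members, a description because level chose them, ran from 16.1% to 23.6% in run 1 (median 20.2%), from 20.8% to 28.2% in run 2 (median 25.2%) and from 16.1% to 29.2% in run 3 (median 23.2%). Genes 3 to 60 moved far less: they held 12.3% to 15.3%, 13.9% to 16.4% and 12.9% to 17.2% of counts in runs 1, 2 and 3. The rest of the variation came from genes 1 and 2. Gene 1 ranged from 1.01% of counts in an F20 library to 9.74% in a T31 library, and gene 2 from 0.895% in an F28 library to 7.82% in a T37 library. The number of genes that together held 50% of a library's counts was 467 to 698 in run 1, 351 to 498 in run 2 and 293 to 594 in run 3.

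Changes with age were tested within single runs, with edgeR's quasi-likelihood test over all genes. A gene was called when its fold change was above 2 and its Benjamini-Hochberg adjusted p, taken over all genes tested, was at most 0.05. Fold changes are on the log2 scale after TMM scaling, while levels are plain CPM. Standard errors (SE) were derived from the test, as the absolute log2 fold change divided by the square root of edgeR's F statistic. Those of the members were small for this table, with a median of 0.14 for F23 against F20 where all genes had 0.27. Smaller changes could thus pass the adjusted p among members than among other genes.

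Within the pseudoglandular phase, when the airway tree branches, 4 members were higher at F23 than at F20 and 0 lower, beside 1.66% of all genes called higher and 0.189% called lower. They were genes 14, 28, 35 and 43. Gene 35 had 1.37, 1.40, 2.20 and 4.24 CPM in the 4 F20 libraries and 24.7, 37.4, 41.6 and 77.9 CPM at F23. It was thus still far below the level of a member at both ages. The change was 4.28 on the log2 scale (SE 0.37, edgeR adjusted p = 3.53e-07). Gene 14 had 5.60, 8.39, 8.75 and 12.4 CPM at F20 and 55.5, 56.9, 58.9 and 59.8 CPM at F23, a change of 2.72 (SE 0.22, edgeR adjusted p = 2.26e-07). Its 4 F23 animals differed by only a few CPM. Gene 43 ran from 36.2 to 87.9 CPM at F20 and from 169 to 195 CPM at F23, and gene 28 from 416 to 747 CPM and from 1168 to 1583 CPM. In none of these 4 genes did the groups overlap. The same held for every member called in a comparison of time points, so it is a description and adds no support to the calls. The call of gene 28 (1.15, SE 0.19) rested on 1 animal, since without F20 replicate 35 its log2 fold change was 1.00 and its fold change no longer above 2. The median log2 fold change was 0.19 over the members and 0.00 over all genes.

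From F23 to the day of term birth, within run 3, 13 members were higher at T31 and 1 was lower, beside 12.1% of all genes called higher and 10.1% called lower. With library size as the only scaling the members split into 8 higher and 3 lower (23.7% of all genes called in either direction), and with DESeq2 into 13 higher and 3 lower (21.9%). This was the comparison with the most members called within a run. Genes 14, 35, 43, 50, 51 and 1 rose by 2.09 or more on the log2 scale, and genes 4, 13, 15, 28, 44, 47 and 56 by 1.06 to 1.57. F20 and F23 supplied only 2 of the 20 combinations whose average chose the members, so low values at these ages weighed less in the choice than low values later. Nothing about the members is therefore read from the larger number of rises than falls. Gene 37 was the member that fell.

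Gene 14 rose by the most: its 3 T31 libraries held 4503, 7103 and 7564 CPM against the 55.5 to 59.8 CPM of F23, a log2 fold change of 7.04 (SE 0.26, edgeR adjusted p = 4.51e-13). Gene 35 stood at 3247, 4577 and 6175 CPM at T31, a change of 6.93 (SE 0.38, edgeR adjusted p = 6.80e-11). Both genes went in this interval from near absence to a place among the leading transcripts of the lung. Gene 43 rose to 1660.2, 2003 and 2226 CPM (log2 fold change 3.69, SE 0.25), and gene 50 from between 313 and 368 CPM at F23 to 2023, 2124 and 5061 CPM (3.46, SE 0.29). Gene 51 had 353 to 496 CPM at F23 and 1266, 1560.2 and 3438 CPM at T31 (2.58, SE 0.26). No T31 library of these genes overlapped with the F23 libraries.

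Gene 1, the most abundant of all, held 17342, 19542, 25723 and 26736 CPM at F23 and 54435, 85874 and 97358 CPM at T31. The lowest newborn was above the highest F23 fetus by a factor of about 2, and the highest newborn had 9.74% of its counts from this gene. The log2 fold change was 2.09 (SE 0.29, edgeR adjusted p = 8.62e-06). The 4 F20 libraries had 10097, 11292, 15600.5 and 27577 CPM of gene 1 and overlapped with those of F23.

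Among the smaller rises, gene 47 (named, like gene 44, after its values were seen) had 951 to 1183 CPM at F23 and 2018, 2069 and 2084 CPM at T31 (log2 fold change 1.22, SE 0.10, edgeR adjusted p = 8.53e-09), and gene 13 had 2493 to 2619 CPM and 4378, 4624 and 4687 CPM (1.09, SE 0.10). The groups did not overlap in these 2 genes. For 5 of the smaller rises the scaling decided the call: with library size alone genes 4, 13, 15, 44 and 47 had log2 fold changes of 0.80 to 0.98 and were not called. Gene 44 was also not called without T31 replicate 18, with a log2 fold change of 0.82. By the adjusted p alone, with no demand on the fold, 31 members were higher and 4 lower, beside 20.9% of all genes higher and 18.6% lower.

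Gene 37 had 1883, 2352, 2954 and 3236 CPM at F23 and 439, 707 and 757 CPM at T31, a log2 fold change of -1.81 (SE 0.21, edgeR adjusted p = 9.12e-07). The T31 libraries of run 3 stood alone in this, since the 3 T31 libraries of run 1, from other animals, held 1523, 1676 and 2095 CPM and overlapped there with those of F25 and F27. Gene 58 showed a like difference, with 647, 834 and 1045 CPM at T31 in run 3 and 1749, 1811 and 1818 CPM at T31 in run 1. No animal of T31 was sequenced in both runs, so animal and run cannot be told apart for these values.

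**Figure D2:**
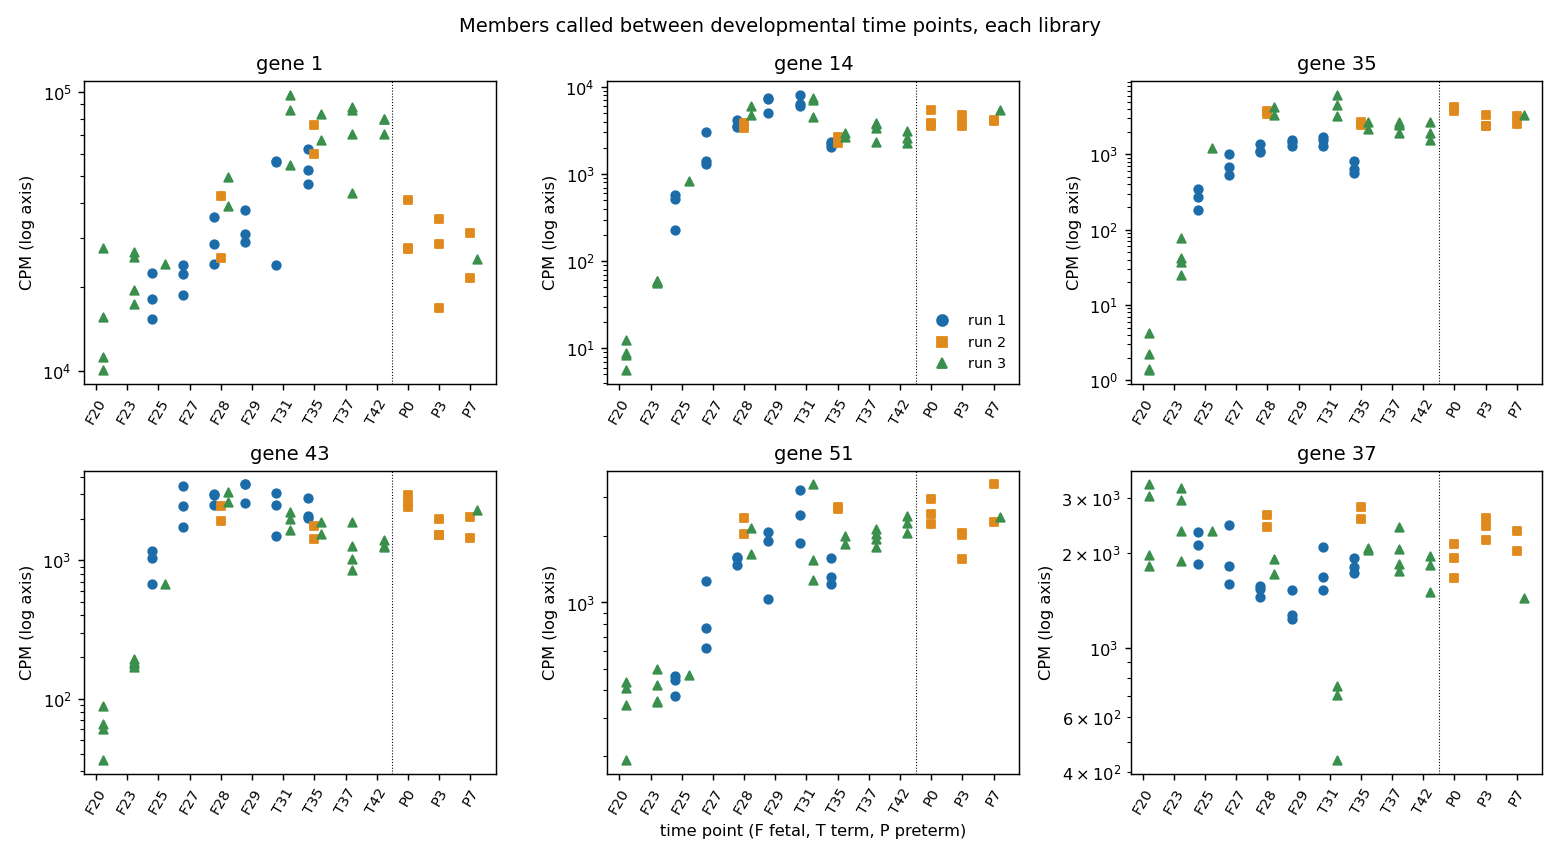
CPM (log axis) of genes 1, 14, 35, 43, 51 and 37 in each library by time point, with fetal and term animals left of the dotted line, preterm animals right of it, and the run given by colour and marker. In run 3, genes 14 and 35 climb from 12.4 CPM or less at F20 to their highest library at T31, and in runs 1 and 3 they lie lower at T35 than at T31 of the same run, and gene 37 dips in the 3 T31 libraries of run 3.

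The late fetal interval was read in run 1. There 4 members were higher at F29, in the saccular phase, than at F25, in the canalicular phase, and 0 were lower, beside 4.42% of all genes called higher and 2.99% called lower. They were genes 14, 35, 43 and 51. Gene 14 had 230.5, 519.8 and 576 CPM at F25, 1304, 1413 and 3027 CPM at F27, 3459.9, 3521 and 4155 CPM at F28 and 5067, 7195 and 7438 CPM at F29. Each age lay above the one before without overlap. From F25 to F29 the log2 fold change was 3.97 (SE 0.33, edgeR adjusted p = 3.68e-06). Gene 35 had 180.4, 274 and 348 CPM at F25 and 1279.8, 1468 and 1558 CPM at F29 (2.51, SE 0.24). Gene 43 reached its range early, with 674, 1044 and 1171 CPM at F25, 1751, 2452 and 3427 CPM at F27 and 2589, 3536 and 3539 CPM at F29 (1.84, SE 0.26), and the values of F27, F28 and F29 overlapped. Gene 51 went from 376, 445 and 465 CPM to 1036, 1911 and 2096 CPM (2.06, SE 0.26). Gene 1 had 15348, 18186 and 22419 CPM at F25 and 28937, 30893 and 37732 CPM at F29, which do not overlap, but its log2 fold change of 0.89 was below 2-fold. The members' median log2 fold change was 0.23, and that of all genes was -0.04.

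At term birth itself no member was called by edgeR. Between F29 and T31, within run 1, 0 members were called in either direction by edgeR, beside 0.0342% of all genes higher and 0.00685% lower, and 13 members had an unadjusted p under 0.05, as 14.4% of all genes did. limma-voom called 0 members, beside 0.0205% of all genes, and DESeq2 called 2, both lower, beside 0.945%. The largest fitted changes were those of genes 11 (-6.55, SE 2.35) and 31 (-5.48, SE 2.04), which differ between animals of 1 age as described below. Gene 1 had 23950.3, 56111 and 56358 CPM at T31, so that 1 newborn lay below all 3 of the F29 fetuses and the others above them. Gene 28 had 2185, 2436 and 2492 CPM at F29 and 2499, 3852 and 5380 CPM at T31, a log2 fold change of 0.75 (SE 0.19, edgeR adjusted p = 0.129).

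After term birth genes 14 and 35 fell. Between T31 and T35, within run 1, these were the only members called, with 0 members higher and 2 lower, beside 0.904% of all genes called higher and 0.37% lower. Gene 14 had 6098, 6414 and 8126 CPM at T31 and 2048, 2211 and 2321 CPM at T35, a log2 fold change of -1.58 (SE 0.30, edgeR adjusted p = 0.0144). Gene 35 had 1277, 1572 and 1679.9 CPM at T31 and 569, 639 and 813 CPM at T35 (-1.09, SE 0.23, edgeR adjusted p = 0.0225). The groups were separate for both genes, and the T35 values of gene 14 were back within the range of F27. These calls depended on single animals: without T31 replicate 1 neither gene was called (adjusted p = 0.0647 for gene 14 and 0.0791 for gene 35), without T35 replicate 6 gene 14 was lost, and without T35 replicates 1 or 11 gene 35 was lost. DESeq2 called 3 members higher and 3 lower, beside 2.27% of all genes in either direction.

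The later postnatal interval, from T31 to T42 in run 3, gave 2 members higher and 2 lower, beside 3.82% of all genes called higher and 1.48% lower. DESeq2 called 4 higher and 2 lower, beside 5.95% of all genes in either direction. Genes 14 and 35 were again the ones that fell. Gene 14 had 2285, 2573 and 3112 CPM at T42 (log2 fold change -1.34, SE 0.23, edgeR adjusted p = 0.000773) and gene 35 had 1563, 1916 and 2657 CPM (-1.26, SE 0.34, edgeR adjusted p = 0.0160). Gene 14 at T37, with 2353, 3419, 3772 and 3852 CPM, lay below all 3 T31 libraries as well. The comparisons of T35 and T42 with T31 used different T31 animals and different runs. Genes 37 and 58 were higher at T42, with 1507, 1837 and 1962 CPM for gene 37 (1.43, SE 0.21) and 1509.6, 1798 and 2334 CPM for gene 58 (1.10, SE 0.18), against the low T31 values of run 3 given above. The call of gene 35 was lost without T31 replicate 4, T42 replicate 14 or T42 replicate 50 (adjusted p from 0.0576 to 0.0739), and that of gene 58 without T31 replicate 11 or T42 replicate 14.

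Below the 2-fold limit the members moved down on balance from T31 to T42 in run 3. Their median log2 fold change was -0.44, while that of all genes was 0.01. By the adjusted p alone 4 members were higher and 25 lower, beside 7.4% of all genes higher and 6.13% lower. Genes 16, 22 and 24 (the latter ones named after their values were seen) had log2 fold changes of -0.78, -0.83 and -0.91 among these. Together, genes 3 to 60 held 16.5% to 17.2% of counts in the 3 T31 libraries of run 3 and 13.8% to 14.2% at T42, without overlap. In run 1 the same 58 members held 13.3% to 14.6% at T31 and 14.03% to 15.3% at F29, which overlap. Level chose the members, and T31 entered more of the averaged combinations than T42 did. Nothing about the members is therefore read from this lean from T31 to T42.

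**Figure D3:**
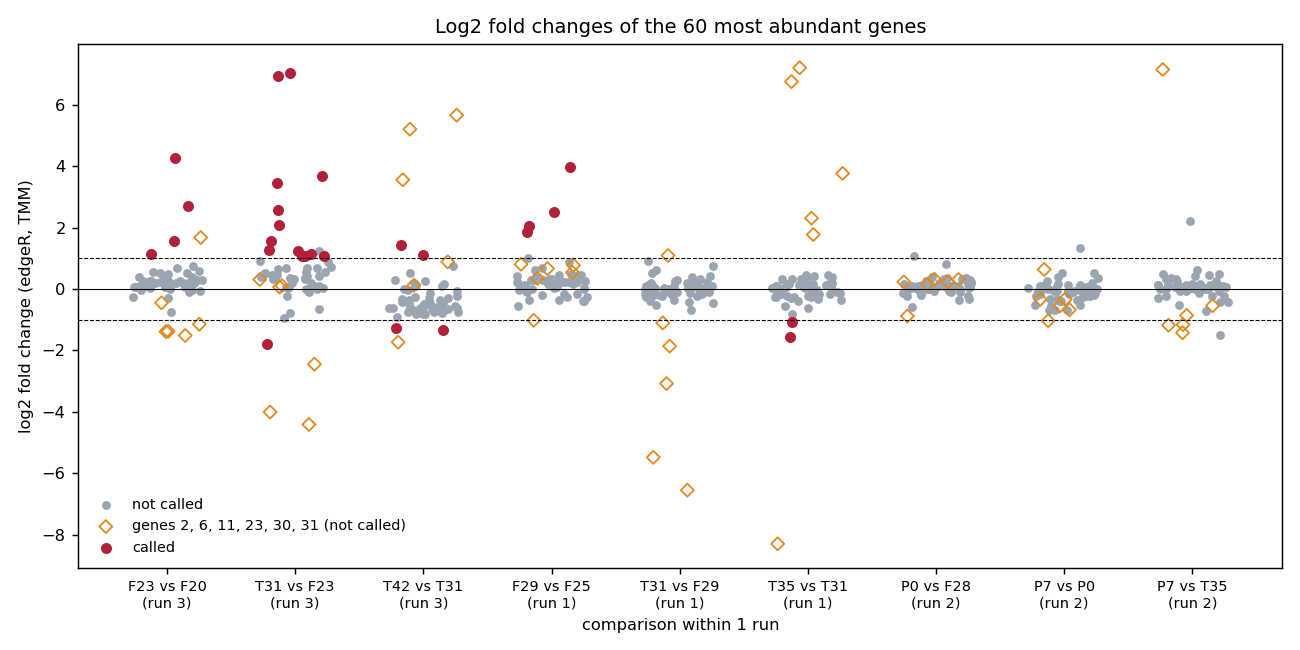
Log2 fold changes (vertical axis, edgeR with TMM scaling) of the 60 members in 9 comparisons, each within 1 run, with called members filled red and genes 2, 6, 11, 23, 30 and 31, none of which was called, as open diamonds. Dashed lines mark a 2-fold change, and most members lie between them in each of the 9 comparisons.

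Preterm delivery was compared in run 2, with 3 P0, 2 P7, 2 F28 and 2 T35 libraries. Members called by edgeR were 0 in each comparison. Between F28 fetuses and P0 pups, both taken by C-section at day 28 but sampled at once or after 1 hour of breathing, 0 of 60 members were called by edgeR, limma-voom or DESeq2, beside 0.181% of all genes called higher and 0.0363% lower, and 7 members had an unadjusted p under 0.05, as 11.2% of all genes did. The members' median log2 fold change was 0.06, with extremes of -0.88 and 1.09. Between P0 and P7, 0 members were called by edgeR, limma-voom or DESeq2, while 3.09% of all genes were called higher and 1.17% lower, and 17 members had an unadjusted p under 0.05, as 21.0% of all genes did. By the adjusted p alone 3 members were higher and 4 lower from P0 to P7, beside 4.59% of all genes higher and 3.32% lower. Gene 13 was among those that passed, with 3174, 3212 and 3410.0 CPM at P0 and 4740.1 and 5051 CPM at P7 (log2 fold change 0.52, SE 0.10, edgeR adjusted p = 0.00877).

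Preterm pups at P7 and term pups at T35 have the same age after conception, 35 days, but differ in days after birth (7 against 4), in mode of delivery, in feeding and in housing, which cannot be told apart here. 0 members were called by edgeR between them, beside 0.435% of all genes called higher and 0.058% lower, and 14 members had an unadjusted p under 0.05, as 11.7% of all genes did. limma-voom and DESeq2 each called 1 member lower at P7, gene 1, beside 0.58% and 1.12% of all genes in either direction. Gene 1 had 21540.2 and 31251 CPM at P7 and 59658 and 75953 CPM at T35. Both P7 values lay below both T35 values. The log2 fold change was -1.50 (SE 0.33), with an adjusted p of 0.0721 in edgeR, 0.0118 in DESeq2 and 0.0488 in limma-voom. The P7 library of run 3 held 25208 CPM of gene 1 and the 2 T35 libraries of run 3 held 66977 and 82956 CPM, but these T35 libraries are of the same 2 animals.

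Over the days after preterm delivery the values of gene 1 overlapped. It had 27476, 27622 and 41104 CPM at P0, 16787, 28620.5 and 35103 CPM at P3 and the P7 values above. F28 fetuses of run 2 had 25375 and 42204 CPM. The difference between the change from P0 to P7 and that from F28 to T35 was -1.49 for gene 1 (SE 0.44, edgeR adjusted p = 0.196). In this test of the difference between the courses 0 members were called by edgeR, limma-voom or DESeq2, beside 0.0725% of all genes called higher and 0.0653% lower, and 9 members had an unadjusted p under 0.05, as 13.3% of all genes did.

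Genes 14 and 35 in preterm pups are given side by side with the term values. Gene 14 had 3525, 3807 and 5447 CPM at P0, 3554, 4005 and 4710.5 CPM at P3 and 4062 and 4177 CPM at P7, against 2246 and 2641 CPM at T35 in the same run. The P7 and T35 values do not overlap, and the log2 fold change of 0.62 (SE 0.18, edgeR adjusted p = 0.190) was not called. Gene 35 had 3765, 4088 and 4191 CPM at P0, 2400, 2405 and 3350 CPM at P3, 2491 and 3221 CPM at P7 and 2460.1 and 2664 CPM at T35. Its P7 and T35 values overlap. From P0 to P7 gene 35 was lower, with a log2 fold change of -0.56 (SE 0.15, edgeR adjusted p = 0.0380). This passed the adjusted p but lay within 2-fold, so it was not called, and the P0 and P7 values do not overlap. For gene 14 the change from P0 to P7 was -0.11 (SE 0.16), and the values overlap. Gene 41, named after its values were seen, had 2709 and 4932 CPM at P7 and 611 and 866 CPM at T35 (log2 fold change 2.23, SE 0.72, edgeR adjusted p = 0.242), but the P7 animal of run 3 had 917 CPM.

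Over the 9 comparisons of time points, 45 of the 60 members were not called in any, and 37 stayed within 2-fold in all 9. Of the 13334 genes tested in all 9, 71.2% were not called in any and 53.3% stayed within 2-fold. The 15 members called in any of the 6 comparisons of fetal and term animals were the same genes named above. 10 members exceeded 2-fold without being called in that comparison. They include all 6 members described next, whose levels differed between animals of the same age. The share of all genes is not given for this count.

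6 members stood at separate levels in animals of the same age. Genes 2, 6, 11, 23 and 31 were high and gene 30 was near absent in 29 libraries, and the reverse held in the other 25, with no library of intermediate gene 30 level. This was noticed after the values were seen, and a limit of 100 CPM for gene 30 separates the libraries. Gene 30 had 1.38 to 66.8 CPM in the 29 libraries of 23 animals and 1193 to 10163 CPM in the 25 libraries of 22 animals. Gene 11 had 2322 to 11337 CPM in the former and 16.5 to 143 CPM in the latter. Gene 31 had 939 to 6509 CPM against 9.72 to 104 CPM, and gene 23 had 1371 to 7664 CPM against 89.6 to 394 CPM. The ranges of these 4 genes do not meet. The identifiers of genes 2, 6, 9, 11, 23 and 31 lie within a stretch of 34 consecutive numbers that holds no other member. Gene 9 is not among the 6 members with separate levels, and the identifier of gene 30 lies outside this stretch. Where these genes lie and whether their reads also map elsewhere was not determined here, so their CPM may include or miss reads shared with other genes. Gene 2 kept a substantial level in both, with 37000.1 to 78158 CPM in the former and 8951 to 30083 CPM in the latter, which sets much of the height of the bars in the plot of shares. Gene 6 was separate within each run, with 2013 to 2714 CPM against 607 to 1265 CPM in run 1, 5948 to 9290 CPM against 4605 to 4792 CPM in run 2, and 5064 to 8222 CPM against 2661 to 4386 CPM in run 3.

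The level was the same in every library of an animal. All 6 animals that were sequenced in more than 1 run, with 15 libraries, kept their level in each run, 2 with gene 30 high and 4 with it low. For example, F28 replicate 2 had 1993, 9147 and 7538 CPM of gene 30 and 25.0, 143 and 76.1 CPM of gene 11 in runs 1, 2 and 3. T35 replicate 11 had 2.21, 24.0 and 24.8 CPM of gene 30 and 4208, 10003 and 9715 CPM of gene 11. 0 animals were mixed.

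**Figure D4:**
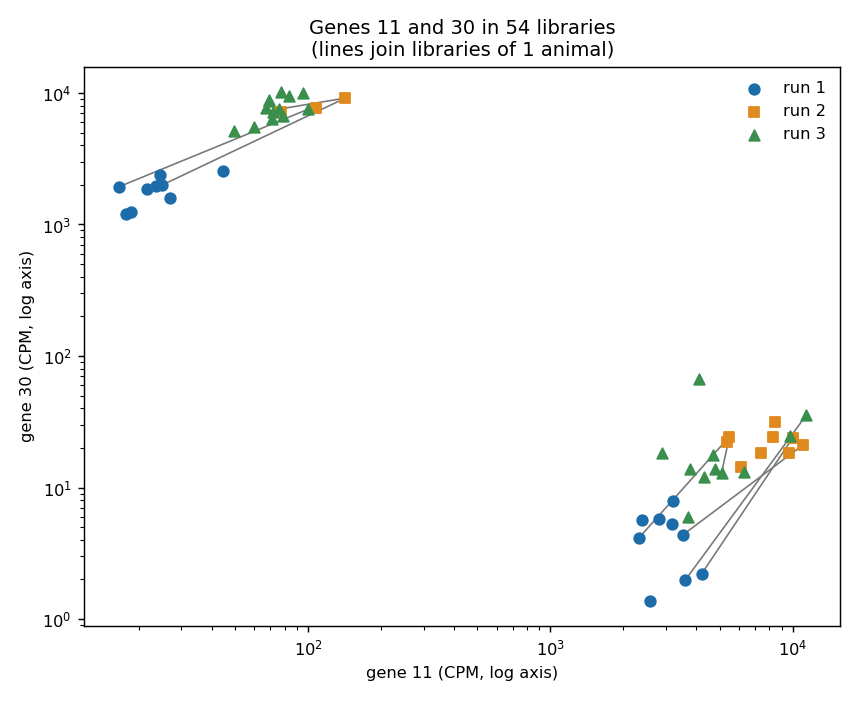
CPM of gene 11 (horizontal, log axis) and gene 30 (vertical, log axis) in the 54 libraries, with colour and marker for the run and lines joining libraries of 1 animal. The libraries form an upper left cloud of 25 and a lower right cloud of 29, and no line crosses between them.

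Both kinds of animal occurred at most ages. Gene 30 was high in 1 of 4 animals at F20, 3 of 4 at F23, 2 of 3 at F25, 1 of 3 at F27, 2 of 3 at F28, 1 of 3 at F29, 3 of 4 at T37 and 1 of 3 at T42, and in 1 of 3 at P0 and 1 of 3 at P7. It was high in all 6 animals at T31 and in 0 of 3 at T35 and 0 of 3 at P3. Comparisons with these ages gave large fitted differences with large errors, in which age and the animals drawn cannot be told apart. For T35 against T31 the fitted log2 fold change was -8.30 for gene 30 (SE 2.95) and 7.21 for gene 11 (SE 2.42), and for P7 against T35 it was 7.15 for gene 30 (SE 3.24). None of these 6 members was called in any of the 9 comparisons by edgeR. Dams, strain lines or genotypes of the animals were not used here, and the cause was not tested.

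As a description over the 54 libraries, deviations of log2(CPM + 1) from the mean of each combination of time point and run were correlated with those of gene 11 for 15945 genes. 13 genes other than gene 11 reached a Pearson correlation of 0.9 or more. 4 of them were members, namely genes 2 (0.96), 6 (0.93), 23 (0.97) and 31 (0.99), and 9 were not members. 2 genes reached -0.9 or less, of which gene 30 (-0.98) was the member. The points share libraries and runs, and repeated animals count more than once.

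The members also differed between runs of the same animals. In the 15 libraries of the 6 animals read more than once, compared within each animal, 23 members were higher and 3 lower in run 3 than in run 1, beside 11.4% of all genes called higher and 17.2% called lower. In run 2 against run 1, 13 members were higher and 3 lower, beside 7.81% of all genes higher and 13.2% lower. The members' median log2 fold change between runs was 0.67 for run 3 and 0.54 for run 2, while all genes had 0.06 and 0.02. Runs 2 and 3 together supplied more of the combinations whose average chose the members than run 1 did. The choice could thus favour genes that read higher in those runs. Whether this accounts for the lean was not tested, and nothing about the members is read from it. 16 members were called in both run differences and 26 in at least 1, beside 16.8% and 32.8% of all genes. Tests of age were therefore kept within runs, and wherever values of different runs stand side by side they include the difference between runs.

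Gene 7 owed its place to run 1. In F28 replicate 2 it had 15702, 1625 and 771 CPM in runs 1, 2 and 3, and in T35 replicate 11 it had 10552, 1013 and 863 CPM. The same animal thus gave a far smaller share of gene 7 in the later runs. The log2 difference was -3.91 for run 3 (SE 0.14, edgeR adjusted p = 4.55e-14) and -3.27 for run 2 (SE 0.15, edgeR adjusted p = 2.94e-12). Over all ages gene 7 had 6385 to 17270.2 CPM in run 1 and 481 to 1795 CPM in runs 2 and 3, without overlap.

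Gene 54, named after its values were seen, was likewise lower in run 3 (-1.10) and in run 2 (-1.73), and gene 9 was lower by about 2-fold in both (-1.01 and -1.05). In the other direction, genes 30, 31, 6 and 35 differed by the most, with log2 differences of 2.45, 2.22, 2.14 and 1.92 for run 3 and 2.66, 2.15, 2.31 and 1.94 for run 2. Gene 35 had 1106, 3470.0 and 3284 CPM in F28 replicate 2 in runs 1, 2 and 3, and 639, 2460.1 and 2179 CPM in T35 replicate 11. The order of these animals was kept within each run. Gene 1 also read higher in run 3 (log2 difference 0.68, edgeR adjusted p = 2.91e-09) and in run 2 (0.39, edgeR adjusted p = 1.91e-05) than in run 1. It was not called because both differences lay below 2-fold. Gene 1 had 35632, 42204 and 49299 CPM in F28 replicate 2 and 52221, 59658 and 66977 CPM in T35 replicate 11.

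**Figure D5:**
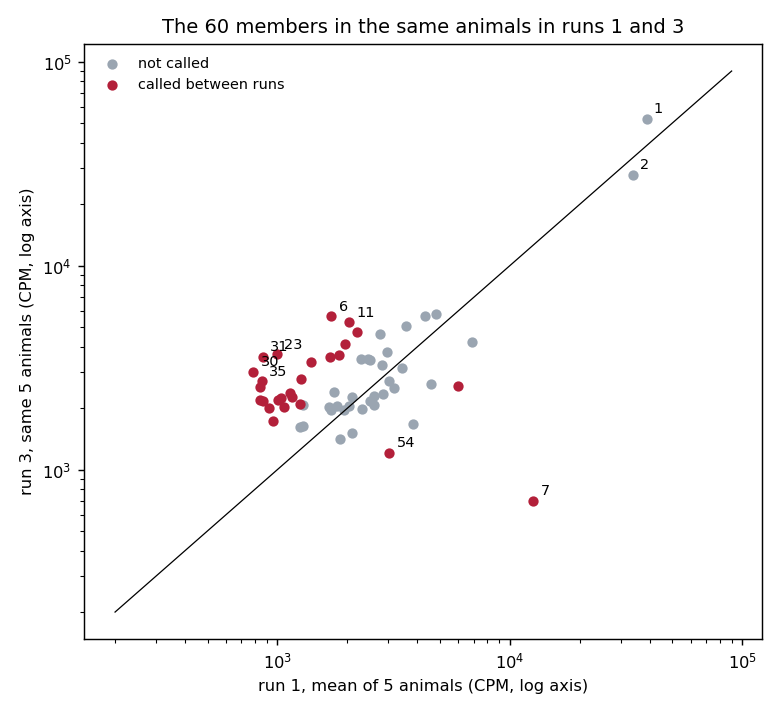
Mean CPM of each of the 60 members in run 1 (horizontal, log axis) and run 3 (vertical, log axis) over the 5 animals sequenced in both, with the line of equality and members called between these runs in red. Gene 7 lies far below the line, and 23 members called higher in run 3 lie above it.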

How the data were processed

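Right lungs (whole lungs at F20 and F23) of 45 rabbits gave 54 QuantSeq FWD libraries. The authors trimmed adapters with BBduk, aligned reads to OryCun2.0 with STAR and obtained gene counts with HTSeq-count on the Ensembl annotation. A custom script handled reads in unannotated 3′ UTRs, and whether the deposited table includes them is not given in the sources used here. The deposited counts are whole numbers without normalization; 0 rows name no gene and 0 columns were unmapped. The submitters' processing notes name FastQC, STAR, HTSeq and OryCun2.0 with no versions.

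CPM, shares and ranks were computed with pandas 2.3.3 in Python 3.11.15. Each run was fitted separately with edgeR 4.0.16 in R 4.3.3 (quasi-likelihood, TMM, a minimum of 0.5 CPM in 3 or more libraries of the fit, all groups of the run), with Benjamini-Hochberg adjustment over all genes tested. Run differences used 15 libraries of 6 animals with the animal as a block. Alternatives were library-size scaling, DESeq2 1.42.0, limma-voom (limma 3.58.1) within runs or over all libraries, no filter, the adjusted p alone, only the groups compared, a block by replicate number, each replicate left out, and other ways to choose the members. The scripts were tested on simulated data. Figures were drawn with matplotlib 3.10.9.

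The members, comparisons and gene lists were chosen with earlier results of these data known. Named with values were the 20 highest members, up to 5 called members with the largest rise and fall per comparison, the 5 with the largest difference between runs, and the 3 genes on each side of the limit; others are said to have been named after their values were seen. Lists by symbol were not used, as 0 of 29587 identifiers matched the 38822 genes of the RefSeq table (mOryCun1.1). 0 pairs of libraries were identical.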

Additional observations from a re-analysis of the deposited data

Results flagged for a closer look

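Among groups of 4 libraries (F20, F23 and T37, all in run 3), the total share of the 60 members, the 15 members called between fetal or term time points and the 6 members that differed between animals of 1 age gave 66 sets of values, of which 18 had 1 library far from the other 3 by Dixon's test (on log2 CPM for genes). Of the 18, 15 belong to genes 2, 11, 23, 30 and 31, included because their levels differ between animals, and to the same 3 animals. Chance flags about 1 in 20 groups, a rate that does not apply to these genes.

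In F20 replicate 1, gene 2 had 9581 CPM, gene 11 83.5 CPM, gene 23 162 CPM, gene 31 52.9 CPM and gene 30 9453 CPM, where the other F20 libraries had 60184 to 72167, 3695 to 4682, 5373 to 7664, 3977 to 5755 and 6.01 to 17.6 CPM. The total share of the 60 members in this library, 16.1%, was also apart from the other 3 (21.1% to 22.1%). This total includes gene 2, which held 0.958% of counts there and 6.02% to 7.22% in the other F20 libraries. Genes 3 to 60 held 13.6% there, within the 12.9% to 14.3% of the other F20 libraries. In F23 replicate 40 the levels were the reverse of the other F23 libraries, with 60076 CPM of gene 2, 4105 CPM of gene 11, 6597 CPM of gene 23, 5014 CPM of gene 31 and 66.8 CPM of gene 30. In T37 replicate 27 they were the reverse of the other T37 libraries, with 78158 CPM of gene 2, 4764 CPM of gene 11, 5712 CPM of gene 23, 5025.0 CPM of gene 31 and 13.8 CPM of gene 30. The remaining flags were gene 15 in T37 replicate 12, with 4630 CPM against 3851 to 3919 CPM, and gene 44 in F23 replicate 23, with 1813 CPM against 1565 to 1597 CPM.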

How the results depend on the processing

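No result reversed its direction under any alternative run. The number of members called moved by more than 1.5 times as follows. By the adjusted p alone it was 10 for F23 against F20, 35 for T31 against F23, 29 for T42 against T31, 11 for F29 against F25, 7 for P7 against P0, and 51 and 53 for runs 3 and 2 against run 1. In the same order, 4.17%, 39.5%, 13.5%, 12.6%, 7.91%, 63.8% and 56.1% of all genes passed the adjusted p. DESeq2 called 2 members for T31 against F29, 6 for T35 against T31 and 1 for P7 against T35, and limma-voom called 1 for P7 against T35. Without a filter on low counts 1 member was called for P0 against F28, 1 for P7 against P0, 3 for P7 against T35, 3 for the difference between the preterm and term courses and 6 for T35 against T31. With only the groups compared in the fit, 7 were called for T35 against T31. limma-voom over all 54 libraries called 2 for T42 against T31, 5 for T35 against T31, 1 for P7 against T35 and 1 for the difference between courses. The cause was not tested. For the fits without a filter, with only the groups compared and over all 54 libraries, shares of all genes are not given. Nothing about the members is read from those counts. The median share of the members was 22.3% of all counts, and 18.1% of the counts left without the most abundant gene of each library. Under scaling by library size alone the median log2 fold change of all genes lay more than 0.1 from 0 in 6 comparisons, from -0.24 (T31 against F23) to 0.18 (the difference between courses).

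With each replicate left out in turn the counts ran from 3 to 5 (F23 against F20), 14 to 16 (T31 against F23), 2 to 4 (T42 against T31, 2 without T42 replicate 14), 4 to 5 (F29 against F25), 0 to 1 (T31 against F29, 1 without T31 replicate 15), 0 to 2 (T35 against T31), 23 to 27 (run 3 against run 1) and 14 to 17 (run 2 against run 1), and stayed at 0 in the 4 preterm comparisons. Where this left 1 library in a group, it was assumed to vary like the other groups. With the replicate block, 1 member was called for P7 against P0 in place of 0. Shares of all genes are not given for these fits, so nothing about the members is read from the counts. P0 and P7 share 2 replicate numbers, their deviations correlated at 0.154 and 0.0695, and pups came from different dams, so the numbers were not taken as pairs. Other ways to choose the members kept 60, 60, 59 and 55 of the 60, while runs 1, 2 and 3 alone kept 43, 52 and 54. Of the values for single genes, 470 kept their side of the threshold, 23 lost a call and 4, all of gene 1 for P7 against T35, gained one.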
